A study of Homo sapiens with 6 samples.

Results

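The 10 genes described here encode amino acid transporters of the plasma membrane, SLC7A5, SLC7A8, SLC7A11, SLC7A1, SLC7A2, SLC3A2, SLC1A4, SLC1A5, SLC38A1 and SLC38A2, and were taken by gene symbol from a table of 46427 genes. All 10 members were found in the table and all 10 passed the filter on low counts. RNA was sequenced from Hs578T, an established triple-negative breast cancer cell line with mesenchymal features. The control group (shCTRL, n = 3 libraries) stably carried a control shRNA, and the knockdown group (shCCN3, n = 3 libraries) stably carried CCN3 shRNA #2. CCN3 is a secreted matricellular protein. Both groups had been infected with a retroviral pSUPER vector and selected with puromycin. Since 1 shRNA was sequenced, effects of lower CCN3 and of that shRNA itself cannot be told apart. Other differences between the selected control and knockdown lines cannot be told apart from these effects either.

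Amino acids cross the plasma membrane through transporters with overlapping substrates. SLC3A2, the CD98 heavy chain, carries no amino acid on its own, but pairs with a light chain such as SLC7A5 (LAT1, leucine and other large neutral amino acids), SLC7A8 (LAT2) or SLC7A11 (xCT, which takes up cystine in exchange for glutamate) and brings it to the cell surface. SLC7A1 and SLC7A2 carry arginine and lysine, SLC1A4 and SLC1A5 exchange small neutral amino acids, glutamine among them for SLC1A5, and SLC38A1 and SLC38A2 take up glutamine and other neutral amino acids together with sodium. Several of these genes are known targets of ATF4, a transcription factor whose translation rises when amino acids are short, and SLC7A11 is also a target of the oxidative stress factor NRF2.

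Of the 10 members, 7 rose in shCCN3 cells, 1 fell and 2 did not pass the test (edgeR's quasi-likelihood test, adjusted p under 0.05 over 17419 genes). SLC7A5 had the highest fold change of the members, 3.98-fold, and its partner SLC3A2 followed with 2.41-fold. SLC1A4, SLC1A5, SLC7A11, SLC7A2 and SLC7A1 rose by between 2.1-fold and 1.23-fold, SLC7A8 fell, and the glutamine carriers SLC38A1 and SLC38A2 did not pass. Over all genes tested, 33.4% were called in either direction, 16.2% higher and 17.3% lower, so that a call by itself was common in this comparison. The median log2 fold change was 0.67 over the members and 0.00757 over all genes tested. The libraries of the groups did not overlap for 7 members that were higher and 1 that was lower, against 22.7% of all genes for higher and 23.6% for lower values. At least 2-fold higher were 3 members (SLC7A5, SLC3A2 and SLC1A4) and at least 2-fold lower was 1 (SLC7A8), against 4.17% and 3.93% of all genes. Among genes with a mean of at least 10 CPM (a gene's counts scaled to the normalised library total), where 18.0% of 9763 genes were called higher, 6 of 8 members were called higher and 0 lower. Summed over the members, the normalised read count lay between 1212.5 and 1276.1 CPM in shCTRL libraries and between 2367.6 and 2490.6 CPM in shCCN3 libraries. SLC7A5 alone went from a mean of 255.3 to 1017.1 CPM and held the largest part of this rise.

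The DNA around start sites listed for the members was searched for the letters of elements bound by factors known to act on these genes. RefSeq (GRCh38.p14) gave 17 windows, from 250 bases before to 50 bases after a start site, for 8 of the 10 members. SLC7A11 and SLC7A2 had no window, so they were not searched for any element. The composite element bound by ATF4 with a C/EBP partner was searched as TGATGNAA on both strands, and 5 windows of 5 members held it, against 3.62% of all 34943 windows of this length. These 5 matches are shown because 4 of their genes rose and 1, SLC38A1, did not pass. Each sequence is given 5′ to 3′ on the strand of the gene with the match in capitals, so that TTGCATCA and TTACATCA are matches on the opposite strand:
SLC1A4, chr2:64989382-64989409, plus strand: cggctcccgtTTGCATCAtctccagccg
SLC1A5, chr19:46784894-46784921, minus strand: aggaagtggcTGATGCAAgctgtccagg
SLC3A2, chr11:62881726-62881748, plus strand: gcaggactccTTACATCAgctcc
SLC7A1, chr13:29595664-29595691, minus strand: ggcgcactgcTGATGAAAcctggcgccg
SLC38A1, chr12:46266503-46266530, minus strand: cagacccgaaTGATGAAAagggatcagc
Positions are those of a match's first letter on the strand of the gene. The match of SLC1A4 began 7 bases before a start site listed by RefSeq. That of SLC1A5 began 97 bases and that of SLC38A1 began 4 bases before one. With 8 letters each, the matches of SLC1A4 and SLC38A1 reached the listed start or ran past it. The matches of SLC3A2 and SLC7A1 began 37 and 7 bases after a listed start. For SLC3A2, SLC1A5, SLC38A1 and SLC1A4, that start lay inside the span of the gene given below and not at its edge. Of the windows of known ATF4 targets outside the members, 13 of 47 held the same letters (27.7%), and 12 of 47 held those of the antioxidant response element described next (25.5%).

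SLC7A5, the member with the highest fold change, had no TGATGNAA in these windows but held matches to the other elements searched. The core of the antioxidant response element, to which NRF2 binds, was searched as TGACNNNGC and occurred in 4 member windows (SLC7A5, SLC3A2, SLC7A1 and SLC1A5) against 13.3% of all windows. The E-box CACGTG, which reads the same on both strands and is bound by MYC, occurred in 3 (SLC7A5, SLC1A5 and SLC7A8) against 7.23% of all windows. The antioxidant response element match of SLC7A5 began 2 bases before a listed start and, with 9 letters, ran past it. The E-box of SLC7A5 began 130 bases before a listed start, and that of SLC7A8, the member that fell, began 129 bases before one:
SLC7A5 antioxidant response element, chr16:87869491-87869519, minus strand: gcggggttccTGACGCAGCtgcgggcggc
SLC7A5 E-box, chr16:87869622-87869647, minus strand: ccggacgacgCACGTGctccgagctg
SLC7A8 E-box, chr14:23154507-23154532, minus strand: caattagaaaCACGTGctcagttcct
The start listed beside the E-box of SLC7A8 lay inside the span of the gene given below and not at its edge. No match of one element overlapped a match of another among the members. A match describes letters in the reference genome, and binding was not measured.

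The light chain SLC7A5 was at 252.5, 265.9 and 247.4 CPM in the shCTRL libraries and at 1054, 959.4 and 1038 CPM in the shCCN3 libraries. Every shCCN3 library was far above every shCTRL library. The means were 255.3 ± 9.55 and 1017 ± 50.7 CPM (SD, n = 3 each), and the log2 fold change was 1.99 (standard error 0.062, edgeR adjusted p = 8.86e-08), or 3.98-fold with a 95% confidence interval of 3.61 to 4.39. SLC7A5 lies on chromosome 16 of GRCh38 from 87830023 to 87869488 on the minus strand and has 10 exons in its principal transcript. The genes around it were higher too. All 24 of its nearest tested genes, between 87302814 and 88856947, had a higher fitted value in shCCN3 cells, with log2 fold changes between 0.03 and 1.61 and a median of 0.61, and 18 of them passed the test as higher. SLC7A5 lay 1.38 above that median on the log2 scale and above each of the 24 genes, while the median over all tested genes of chromosome 16 was 0.01. The part of the shared shift in the rise of SLC7A5 was not tested. Of the other members, none had a neighbours' median beyond 0.20 in either direction.

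The heavy chain SLC3A2 was at 157.0, 170.2 and 180.0 CPM in shCTRL and at 383.5, 452.5 and 388.6 CPM in shCCN3 libraries. The groups were well apart, and the shCCN3 library of replicate 2 was the highest. SLC3A2 rose from 169.1 ± 11.5 to 408.2 ± 38.5 CPM (SD, n = 3 each). Its log2 fold change was 1.27 (standard error 0.082, edgeR adjusted p = 5.58e-06), and its 24 neighbours on chromosome 11 (62856102 to 62888875, plus strand, 12 exons) had a median of 0.13.

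SLC7A11, the cystine carrier, was at 75.26, 70.74 and 68.16 CPM in shCTRL and at 107.2, 98.87 and 118.3 CPM in shCCN3 libraries. The groups did not overlap, but the rise was smaller than that of SLC7A5 and SLC3A2. The log2 fold change was 0.60 (standard error 0.077, edgeR adjusted p = 0.000355), or 1.51-fold with a 95% confidence interval of 1.34 to 1.71. SLC7A11 lies on chromosome 4 from 138164097 to 138242349 on the minus strand, with 12 exons. An antisense gene, SLC7A11-AS1, overlaps it by 14081 bases but had at most 1 count in any library.

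SLC7A8, the other large neutral amino acid light chain, was the 1 member that fell. It was scarce, with 73, 60 and 59 counts in shCTRL libraries and 29, 24 and 32 counts in shCCN3 libraries. These counts correspond to 1.06, 0.955 and 0.879 CPM in shCTRL and to 0.421, 0.432 and 0.500 CPM in shCCN3. The lowest shCTRL library was above the highest shCCN3 library. The log2 fold change was -1.10 (standard error 0.226, edgeR adjusted p = 0.00508), so that the level was 2.14-fold higher in shCTRL cells, and the 95% confidence interval of the log2 fold change ran from -1.61 to -0.58. SLC7A8 lies on chromosome 14 from 23125295 to 23183674 on the minus strand, with 11 exons.

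**Figure D1:**
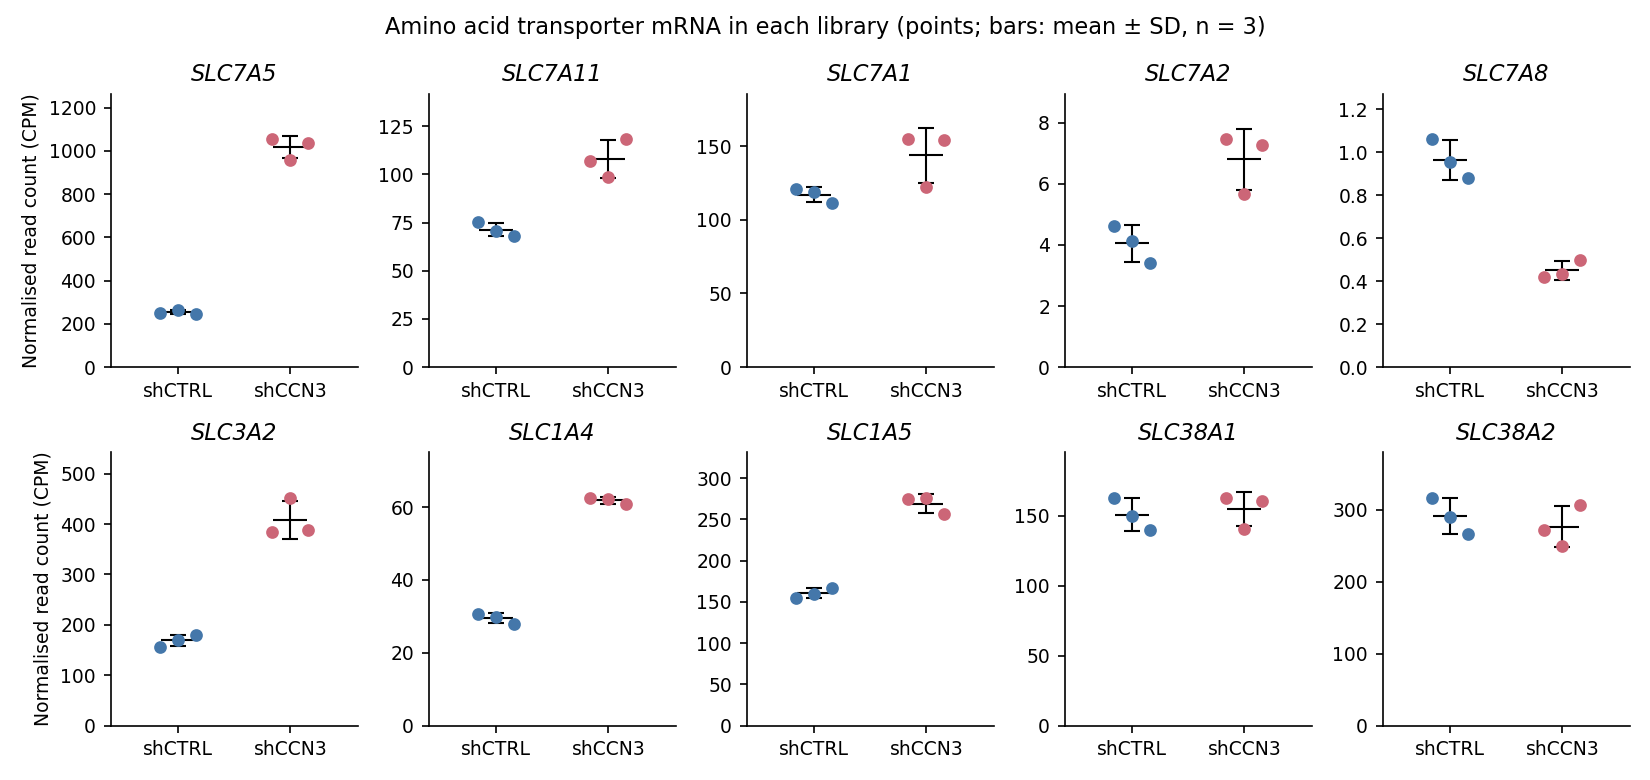
Normalised read count (CPM, vertical axes starting at 0) of the 10 members in each of the 3 shCTRL and 3 shCCN3 libraries; each point is a library and the bars are the mean ± SD (n = 3). The groups are apart for SLC7A5 (247.4 to 265.9 against 959.4 to 1054 CPM) and the other 7 members that passed the test, and overlap for SLC38A1 and SLC38A2.

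The cationic amino acid carriers SLC7A1 and SLC7A2 were both higher in shCCN3 cells, SLC7A1 narrowly so. SLC7A1 was at 121.0, 118.9 and 111.4 CPM in shCTRL and at 154.7, 121.9 and 154.2 CPM in shCCN3 libraries. The shCCN3 library of replicate 2 lay just above the highest shCTRL library. The log2 fold change was 0.29 (standard error 0.094, edgeR adjusted p = 0.0374), or 1.23-fold with a 95% confidence interval of 1.06 to 1.42. The call of SLC7A1 was lost when any library but the shCCN3 library of replicate 2 was left out (edgeR adjusted p = 0.138 and 0.123 without the shCCN3 libraries of replicates 1 and 3, and 0.0737, 0.0996 and 0.119 without the shCTRL libraries of replicates 1, 2 and 3). SLC7A1 lies on chromosome 13 from 29509410 to 29595688 on the minus strand, with 13 exons.

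SLC7A2 was at 4.63, 4.12 and 3.41 CPM in shCTRL and at 7.46, 5.65 and 7.27 CPM in shCCN3 libraries. Its level was low and the groups did not overlap. The log2 fold change was 0.75 (standard error 0.152, edgeR adjusted p = 0.00473), with a wide 95% confidence interval of the fold change, 1.32 to 2.13. SLC7A2 lies on chromosome 8 from 17497088 to 17570573 on the plus strand, with 14 exons.

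Both neutral amino acid exchangers rose. SLC1A4 (ASCT1) was at 30.69, 29.78 and 27.95 CPM in shCTRL and at 62.61, 62.12 and 60.85 CPM in shCCN3 libraries. The libraries of each group lay close together, and the log2 fold change was 1.07 (standard error 0.063, edgeR adjusted p = 3.15e-06). SLC1A4 lies on chromosome 2 from 64988477 to 65023865 on the plus strand, with 8 exons. SLC1A5 (ASCT2), known for glutamine exchange, was at 154.2, 160.1 and 166.8 CPM in shCTRL and at 274.8, 276.4 and 256.6 CPM in shCCN3 libraries. Its libraries did not overlap either, and the log2 fold change was 0.75 (standard error 0.060, edgeR adjusted p = 1.95e-05). SLC1A5 lies on chromosome 19 from 46774883 to 46788594 on the minus strand, with 8 exons.

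The sodium-coupled carriers SLC38A1 (SNAT1) and SLC38A2 (SNAT2), neighbours on chromosome 12, did not pass the test. SLC38A1 was at 162.8, 149.4 and 139.6 CPM in shCTRL and at 162.4, 140.6 and 160.4 CPM in shCCN3 libraries. The groups overlapped. The log2 fold change was 0.04 (standard error 0.079, edgeR adjusted p = 0.768), with a 95% confidence interval of the fold change of 0.906 to 1.16. SLC38A2, which is known to be induced when amino acids are short, was at 316.8, 289.5 and 266.9 CPM in shCTRL and at 272.2, 249.7 and 306.3 CPM in shCCN3 libraries. These groups overlapped as well. The log2 fold change was -0.08 (standard error 0.089, edgeR adjusted p = 0.56), with a 95% confidence interval of the fold change of 0.825 to 1.09. A rise of either gene as large as that of SLC7A11 lies outside these intervals. SLC38A1 spans 46183063 to 46270017 with 17 exons and SLC38A2 spans 46358189 to 46372867 with 16 exons, both on the minus strand.

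**Figure D2:**
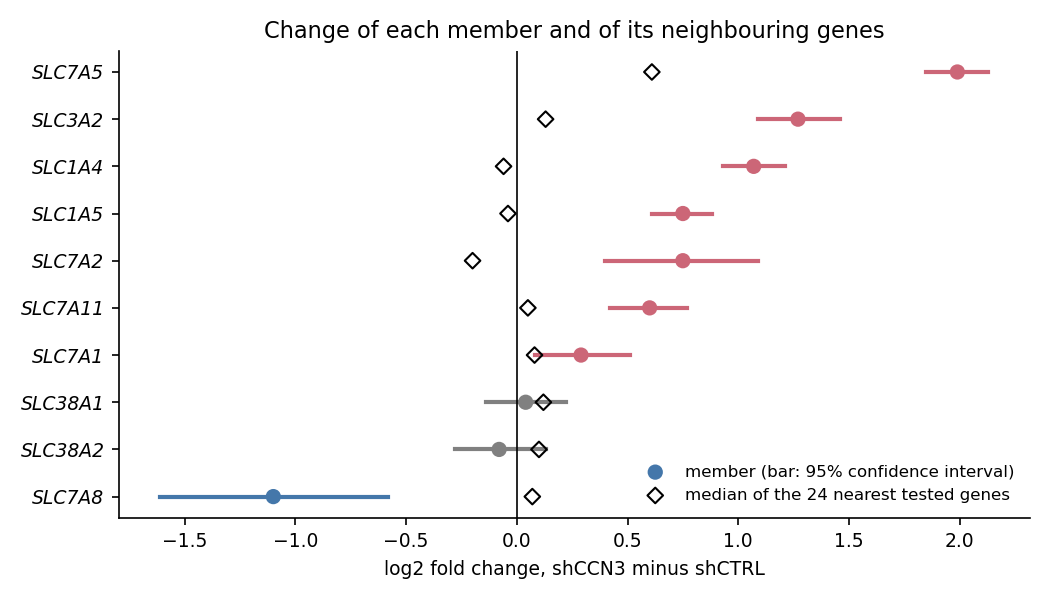
Log2 fold change (shCCN3 minus shCTRL, horizontal axis) of each member with its 95% confidence interval, red for higher, blue for lower and grey for not passed, beside the median of its 24 nearest tested genes (open diamonds). SLC7A5 is at 1.99 with neighbours at 0.61, while the neighbours' medians of the other 9 members lie between -0.20 and 0.13.

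Levels were compared between genes per length, as RPKM over the principal transcript, that is, CPM divided by transcript length in kilobases. In shCTRL cells SLC3A2 was highest (78.3 ± 5.34 RPKM, SD, n = 3), followed by SLC38A2 (59.5 ± 5.12), SLC7A5 (56.3 ± 2.11) and SLC1A5 (55.7 ± 2.18), and the last 3 did not differ beyond their spread. SLC38A1 (18.7 ± 1.44) and SLC7A1 (15.9 ± 0.691) came next, then SLC7A11 (7.40 ± 0.373) and SLC1A4 (6.46 ± 0.306), and SLC7A2 (0.531 ± 0.0800) and SLC7A8 (0.229 ± 0.0219) were lowest. In shCCN3 cells SLC7A5 was first (224.2 ± 11.2 RPKM), then SLC3A2 (188.9 ± 17.8), SLC1A5 (93.4 ± 3.81) and SLC38A2 (56.5 ± 5.82). SLC7A1 (19.5 ± 2.56) and SLC38A1 (19.2 ± 1.49) did not differ beyond their spread, SLC1A4 (13.6 ± 0.199) moved above SLC7A11 (11.2 ± 1.01), and SLC7A2 (0.889 ± 0.130) and SLC7A8 (0.107 ± 0.0102) stayed lowest. The places of SLC3A2 and SLC1A4, and the shCTRL order of some other members, depended on the length used. With all its exons merged (5178 bases in place of 2161), SLC3A2 fell to 32.7 RPKM in shCTRL cells, behind SLC7A5 (53.8), SLC1A5 (48.1) and SLC38A2 (44.1), and in shCCN3 cells it was at 78.8 RPKM beside 80.8 for SLC1A5. With merged exons SLC1A4 (8.92 RPKM) stayed below SLC7A11 (11.2 RPKM) in shCCN3 cells. In shCTRL cells, merged exons put SLC38A2 behind SLC7A5 and SLC1A5, and SLC38A1 (15.0 RPKM) beside SLC7A1 (15.2 RPKM).

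The make-up of the light chain mRNA was set against SLC3A2 within each library. Light chains outside the members were counted too. SLC7A6 did not pass (log2 fold change 0.06, edgeR adjusted p = 0.57), SLC7A7 was under 1 CPM (log2 fold change 0.75, edgeR adjusted p = 0.177) and SLC7A10 had no counts. The light chains summed to 69.7, 72.0 and 67.4 RPKM in shCTRL and to 249.6, 227.6 and 247.8 RPKM in shCCN3 libraries. Their ratio to SLC3A2 was 0.960, 0.914 and 0.809 in shCTRL and 1.41, 1.09 and 1.38 in shCCN3 libraries. With all exons merged it was 2.18, 2.08 and 1.84 against 3.22, 2.49 and 3.15, so the size of the ratio depended on the length of SLC3A2. The relative rise of the ratio could not depend on that length, since it is the same for every library. SLC7A5 made up 79.8%, 81.4% and 80.9% of the light chain RPKM in shCTRL libraries and 93.1%, 92.9% and 92.3% in shCCN3 libraries. The share of SLC7A11 was 11.2%, 10.2% and 10.5% in shCTRL and 4.45%, 4.50% and 4.95% in shCCN3 libraries, although its own level rose. These are shares of mRNA, and protein or transport was not measured here.

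**Figure D3:**
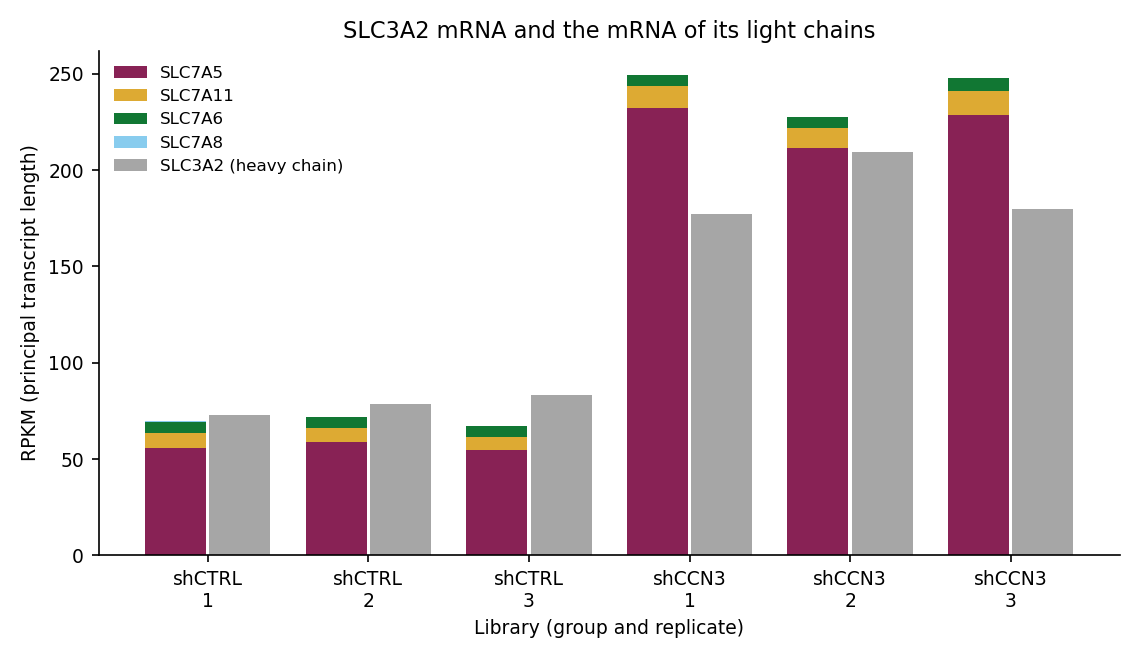
RPKM (vertical axis, from 0, per principal transcript) of SLC3A2 (grey bars) and of its light chains (stacked bars, by colour) in each of the 6 libraries; SLC7A8 is too low to be seen and SLC7A7 is not drawn. The stack is below the grey bar in the 3 shCTRL libraries (67.4 to 72.0 RPKM) and above it in the 3 shCCN3 libraries (227.6 to 249.6 RPKM), an order that holds for these transcript lengths only.

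Ratios of related members within a library do not depend on the library's total. For 6 pairs, an exact permutation test (two-sided) gave p = 0.1 each, 0.1 after adjustment over the 6 pairs, which is the smallest p that 3 libraries against 3 can give. SLC7A5 over SLC7A8, the LAT1 and LAT2 light chains, was 221, 259 and 262 in shCTRL and 2328.7, 2064.0 and 1927.1 in shCCN3 libraries, a log2 difference of 3.09. SLC7A5 over SLC3A2 was 0.766, 0.744 and 0.655 in shCTRL and 1.31, 1.01 and 1.27 in shCCN3 libraries (log2 difference 0.72), and SLC7A11 over SLC3A2 went the other way, from 0.107, 0.0931 and 0.0848 to 0.0626, 0.0490 and 0.0682 (log2 difference -0.67). In neither of these ratios to the heavy chain did the groups overlap. SLC1A4 over SLC1A5 was 0.126, 0.118 and 0.106 in shCTRL and 0.144, 0.142 and 0.150 in shCCN3 libraries (log2 difference 0.32). SLC7A1 over SLC7A2 was 27.2, 30.0 and 33.9 in shCTRL and 21.6, 22.4 and 22.1 in shCCN3 libraries (log2 difference -0.46). SLC38A1 over SLC38A2 was 0.311, 0.313 and 0.317 in shCTRL and 0.362, 0.341 and 0.317 in shCCN3 libraries (log2 difference 0.11), so that the nearest libraries of the groups met.

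**Figure D4:**
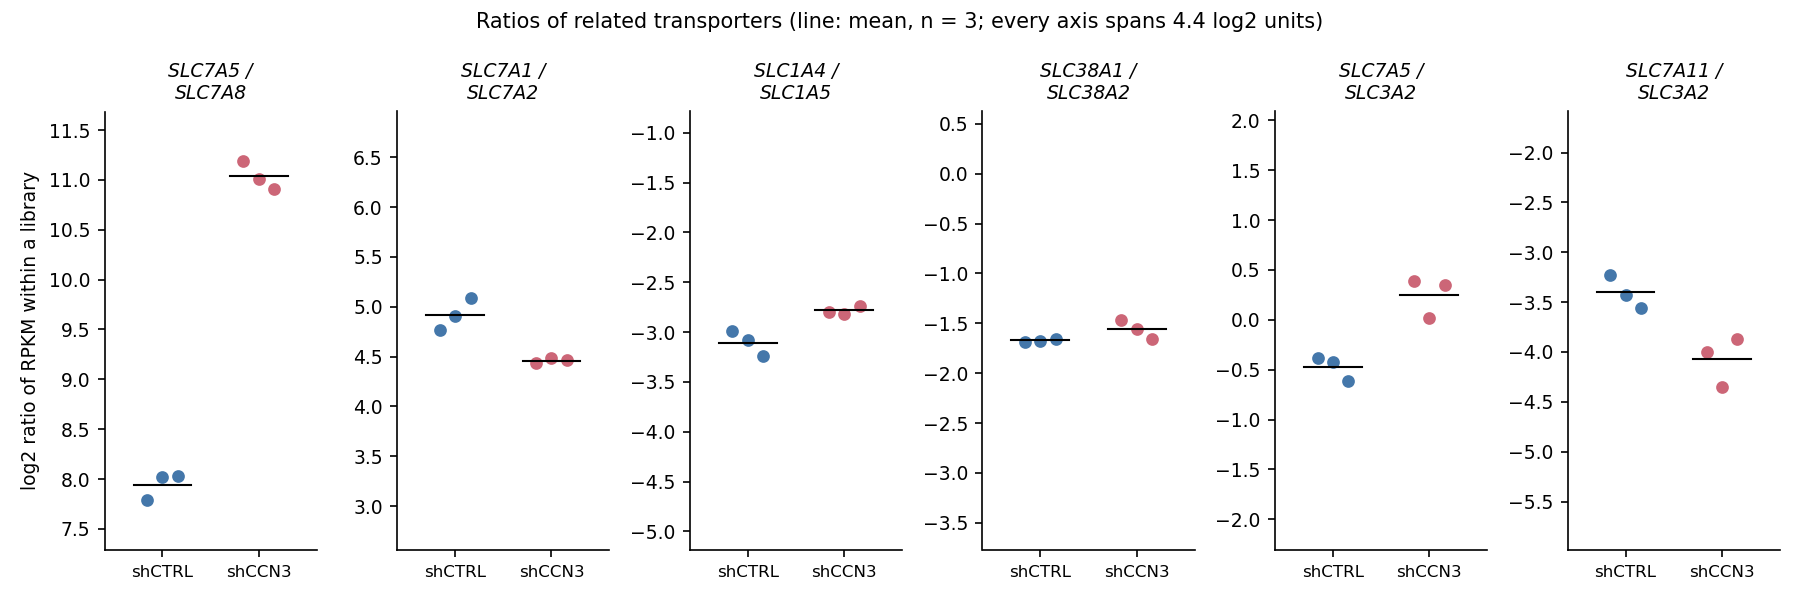
Log2 ratio of RPKM within a library for 6 pairs of related transporters in shCTRL and shCCN3 cells; points are libraries, lines are means (n = 3), and every vertical axis spans the same number of log2 units. SLC7A5 over SLC7A8 shows the widest gap (log2 difference 3.09), and SLC38A1 over SLC38A2 the narrowest (0.11).

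The members were not in the same order across libraries of a group. The shCCN3 library of replicate 2 was the lowest of its group for 6 members (SLC7A5, SLC7A11, SLC7A1, SLC7A2, SLC38A1 and SLC38A2) and the highest for SLC3A2 and SLC1A5. The shCTRL library of replicate 3 was the lowest of its group for the other 8 members and the highest for SLC3A2 and SLC1A5. SLC3A2 and SLC1A5 have the shortest principal transcripts of the members, 2161 and 2882 bases, and the part of length or RNA quality in this order was not tested.

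The mRNA that the shRNA was directed at, CCN3, was at 102.7, 101.9 and 98.14 CPM in shCTRL and at 47.44, 47.17 and 46.53 CPM in shCCN3 libraries (log2 fold change -1.10, edgeR adjusted p = 1.34e-06). The libraries held between 56159110 and 68393177 counts, and 3 counts correspond to between 0.0439 and 0.0534 CPM, which covers counting error only. Replicates of a group differed by more than counting noise (chi-square per degree of freedom 7.13 to 46), and the pairs with the shCCN3 library of replicate 2 differed most (37.6 and 46). Of 7 mesenchymal markers, CDH2 rose (log2 fold change 0.87), CAV1 fell (-0.65) and 5 did not pass, with VIM at 6619 to 7992.2 CPM. The epithelial markers EPCAM and CDH1 and the oestrogen receptor ESR1 were at most at 0.156 CPM. The progesterone receptor PGR was at 2.663 to 4.565 CPM and ERBB2 was at 72.0 to 82.9 CPM. The summed epithelial markers were at 174.4 to 193.2 CPM in shCTRL and at 225.9 to 278.2 CPM in shCCN3 libraries, with 1 of 3 tested markers higher (KRT18) and 2 lower (KRT8 and CLDN4). Summed immune markers went from 95.58 to 107.8 CPM in shCTRL to 58.4 to 60.21 CPM in shCCN3 libraries. They were made up mostly of CD68, the 1 of 3 tested that fell, and the leukocyte marker PTPRC was at most at 0.203 CPM. The part of these markers in the results on the transporters was not tested. In bulk RNA, fewer cells of a type and less RNA per cell cannot be told apart.

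Beyond the members, 42 further genes of plasma membrane and lysosomal amino acid transport were listed, of which 19 could be tested, 5 rose, 2 fell and 12 did not pass (median log2 fold change 0.06). Of those tested, 26.3% were higher and 10.5% lower, against 16.2% and 17.3% of all genes tested. SLC1A7, a glutamate carrier known from retina, was at 0.160, 0.191 and 0.179 CPM in shCTRL and at 3.92, 4.14 and 4.43 CPM in shCCN3 libraries (log2 fold change 4.55, edgeR adjusted p = 3.93e-07). SLC6A9, a glycine carrier, rose from 44.8 ± 1.51 to 82.9 ± 4.43 CPM (SD, n = 3 each, log2 fold change 0.89). SLC43A2 and SLC38A7 rose as well, by 0.61 and 0.22 on the log2 scale. SLC3A1, a heavy chain related to SLC3A2 and chosen for mention after its values were seen, rose from a low 0.216 ± 0.0934 to 0.920 ± 0.244 CPM (SD, n = 3 each, log2 fold change 2.07, edgeR adjusted p = 0.00236). The 2 that fell were SLC66A1, a lysosomal exporter of cationic amino acids (log2 fold change -0.55), and SLC1A1, a plasma membrane glutamate carrier (-0.45). Of the 23 genes that could not be tested, 18 had no counts in any library.

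Of 9 tested carriers of the inner mitochondrial membrane, 0 rose and 4 fell and 5 did not pass (median log2 fold change -0.18). Lower calls made up 44.4% of these carriers, against 17.3% of all genes tested, and higher calls 0% against 16.2%. SFXN3, a serine carrier, fell from 119.3 ± 5.40 to 75.6 ± 2.06 CPM (SD, n = 3 each, log2 fold change -0.66, edgeR adjusted p = 4.18e-05). The aspartate and glutamate carriers SLC25A13 and SLC25A12 fell by 0.44 and 0.34 on the log2 scale, and SLC25A29, a carrier of basic amino acids, by 0.34.

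Among 40 known ATF4 targets outside the members, 33 rose, 0 fell and 7 did not pass (median log2 fold change 0.47). Higher calls made up 82.5% of the list, against 16.2% of all genes tested and 18.0% of those with a mean of at least 10 CPM. The list was chosen with earlier results of these data known, so this contrast is a description and not a test. GDF15, a secreted stress factor, had a log2 fold change of 2.76 (edgeR adjusted p = 3.59e-06), CHAC1, which degrades glutathione, 2.05, DDIT4, an inhibitor of mTORC1, 1.62, and the transcription factor ATF3 1.32. ATF4 itself was at 321.7, 334.5 and 355.8 CPM in shCTRL and at 484.9, 546.6 and 443.6 CPM in shCCN3 libraries, a log2 fold change of 0.54 (edgeR adjusted p = 0.000858). ATF4 protein was not measured in these libraries.

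The 24 NRF2 targets outside the members were split, with 7 higher, 8 lower and 9 not passed (median log2 fold change -0.07). These shares were 29.2% higher and 33.3% lower, against 16.2% and 17.3% of all genes tested. The aldo-keto reductases AKR1C1 (1.50), AKR1C2 (1.41) and AKR1C3 (0.51) rose, but they are close copies among which counting could divide reads. The other 4 that rose, ABCC2 (0.47), GCLC (0.34), ME1 (0.27) and TKT (0.17), are not among these copies, and the last 3 were chosen for mention after their values were seen. FTH1, the ferritin heavy chain (-0.84), GSR, which recycles glutathione (-0.83), HMOX1, heme oxygenase (-0.54), and SLC48A1, a heme carrier (-0.51), fell.

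Of 11 tested enzymes that use glutamine, branched-chain amino acids or arginine, 2 rose, 4 fell and 5 did not pass. The share called higher, 18.2%, was near the 16.2% of all genes tested, and 36.4% were lower against 17.3%. BCAT1, the cytosolic branched-chain transaminase, rose (log2 fold change 0.85, edgeR adjusted p = 4.13e-05) together with GOT1 (0.46), while GLUD1, glutamate dehydrogenase (-0.52), ASL (-0.48), BCKDHA (-0.38) and the mitochondrial transaminase BCAT2 (-0.28) fell. The amino acid sensors were 2 higher, 3 lower and 2 not passed. For this short list the shares were 28.6% higher and 42.9% lower, against 16.2% and 17.3% of all genes tested. SESN2 is in this list and also in that of the ATF4 targets, so it is counted in both. SESN2 (0.65) and SESN1 (0.58) rose, SESN3 (-0.62) and the arginine sensors CASTOR2 (-0.76) and CASTOR1 (-0.35) fell, and EIF2AK4, which encodes the kinase GCN2, was at 63.6 ± 2.33 and 61.9 ± 7.21 CPM (SD, n = 3 each, edgeR adjusted p = 0.785). SAMTOR, the sensor of S-adenosylmethionine, did not pass either (log2 fold change -0.21, edgeR adjusted p = 0.16).

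Of 10 regulators and partners of the members, 6 rose, 1 fell and 3 did not pass. This made 60% higher and 10% lower, against 16.2% and 17.3% of all genes tested. Besides ATF4, those that rose included MYC (log2 fold change 0.53), RNF5 (0.46), a ubiquitin ligase for SLC1A5 and SLC38A2, BACH1 (0.46) and NFE2L2, which encodes NRF2 (0.26). CD44, whose variant forms hold SLC7A11 at the cell surface, fell from 2158.1 ± 52.4 to 1815.0 ± 45.8 CPM (SD, n = 3 each, log2 fold change -0.25, edgeR adjusted p = 0.00429). KEAP1 (-0.17), NEDD4L (0.05) and LAPTM4B (0.08) did not pass.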

How the data were processed

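RNA-seq was done on 3 shCTRL and 3 shCCN3 libraries of Hs578T cells, grouped by their labels, which number 3 replicates in each group. The authors prepared stranded poly(A) libraries, and the submitters' processing notes name Trimmomatic, HISAT2 2.1.0, StringTie, DESeq2 and GRCh38. The authors deposited raw read counts per gene, without normalization. Whether counting used strand is not given in the sources used here, so values of overlapping genes and of near-identical copies are uncertain. SLC7A5 has such copies, SLC7A5P1 and SLC7A5P2, with at most 74 counts in a library.

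edgeR 4.0.16 (R 4.3.3) gave CPM and log2 fold changes. Its filterByExpr step kept 17419 genes, library sizes were scaled by TMM, and the quasi-likelihood test had no block. Benjamini-Hochberg adjustment ran over all genes tested, with a threshold of 0.05. P-values measure the spread between these libraries. The files hold no other columns of per-sample values. RPKM used lengths of principal transcripts, and positions and exons, from GENCODE 29 on GRCh38. Sequences were read from RefSeq promoters (GRCh38.p14).

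The members and lists were chosen with earlier results of these data known. From each list, up to 4 genes per direction with the largest change, an adjusted p under 0.05 and a mean of at least 1 CPM were named, as were the sensors, regulators and other light chains, except for an item that is not reported here. Alternatives were DESeq2's size factors, upper-quartile normalization, no filter, a minimum of 10 counts in each library, DESeq2 1.42.0, limma-voom (limma 3.58.1), a replicate block and each library left out. All exons merged as gene length was chosen after seeing the data. The scripts were tested on simulated data.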

Additional observations from a re-analysis of the deposited data

How the results depend on the processing

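SLC7A5, SLC3A2, SLC1A4, SLC1A5, SLC7A11, SLC7A2 and SLC7A8 kept their direction and their call under all 13 alternatives, and SLC38A1 and SLC38A2 were called under 0. SLC7A1 was called under 6 of 13, and its adjusted p was 0.0506 without the filter on low counts and 0.056 with the replicate block. When single libraries were left out, log2 fold changes lay between 1.97 and 2.04 for SLC7A5, 1.19 and 1.32 for SLC3A2, and -1.18 and -1.02 for SLC7A8. That of SLC38A1 reversed to -0.0008 without the shCCN3 library of replicate 1 (adjusted p = 0.996) and to -0.014 without the shCTRL library of replicate 3 (adjusted p = 0.93), and reached 0.10 without the shCCN3 library of replicate 2. The counts of members ranged from 6 to 7 higher, with 1 lower. With single libraries left out, other amino acid transporters called higher numbered 3 to 6 (3 without the shCCN3 libraries of replicates 1 or 3 or the shCTRL libraries of replicates 1 or 2), NRF2 targets called higher 4 to 8 (4 without shCTRL replicate 2) and lower 5 to 12 (5 without shCCN3 replicate 1), mitochondrial carriers called lower 2 to 4 (2 without shCCN3 replicate 1 or shCTRL replicate 2, while DESeq2 called 6 and upper-quartile normalization 5), and regulators called lower 1 to 2 (2 without shCCN3 replicate 2). With single libraries left out, regulators called higher numbered 4 to 6 (4 without shCCN3 replicates 1 or 3 or shCTRL replicate 3). The cause of these shifts was not tested. These fits have fewer samples.

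The main test had no block because the study's methods describe none. The replicate numbers come from the labels, and same-numbered libraries did not deviate together (correlations 0.0891, -0.0256 and -0.0657). With the replicate block, 2331 genes were called higher and 2556 lower, against 2814 and 3011 without it, and 6 members were higher and 1 lower. Depth limits SLC7A8 most, with 24 to 73 counts a library.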
